A study of Homo sapiens with 4 samples.

Results

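The 8 classical BH3-only genes, BAD, BBC3, BCL2L11, BID, BIK, BMF, HRK and PMAIP1, were followed after an antisense oligonucleotide was used to lower the long noncoding RNA LINC01432 in RPMI 8226 cells, a widely used line from a human myeloma. They were taken by name: each symbol matched 1 Ensembl gene row, so 8 of 78932 gene rows were used, and all 8 passed the filter on low counts that left 18680 genes to test. The series holds 2 groups of 2 RNA-seq libraries, all made 72 h after transfection of a locked nucleic acid (LNA) oligonucleotide, a short modified DNA strand that binds a complementary RNA. The control group received the oligonucleotide titled Control LNA ASO1, whose dose the labels do not state separately, and the other group LINC01432 LNA ASO3 at 50 nM. Each group thus rests on 1 oligonucleotide in 1 cell line, and effects of lowering LINC01432 cannot be told apart from other effects of that oligonucleotide. Nothing in the labels states separate cultures for the libraries within a group, and the p-values reflect the spread between these libraries alone, which may be technical.

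BH3-only proteins start the mitochondrial pathway of apoptosis. Each carries a short helix, the BH3 domain, that docks into a groove on the survival proteins of the BCL2 family (BCL2, BCL-XL, BCL-w, MCL1 and BFL1) and frees the effectors BAX and BAK, which permeabilise the outer mitochondrial membrane. BIM (from BCL2L11), PUMA (from BBC3) and the caspase-cleaved form of BID bind every survival protein and can also activate BAX and BAK directly, whereas BAD, NOXA (from PMAIP1), BIK, BMF and HRK act mainly by occupying survival proteins. Myeloma cells often depend on MCL1, the survival protein that NOXA and BIM bind.

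The stretch that defines the family is shown because it is what the 8 members share and their RNA levels do not. In the principal coding sequence of each member in GENCODE 29, the pattern of a leucine, any 3 residues, a glycine, alanine or serine, an aspartate, any residue, and a phenylalanine, leucine or methionine occurred at 1 place. It is not specific to the family, since 1578 of 19529 coding genes (8.08%) held it. The lines give the coding strand from 5′ to 3′, with the 24 bases of the pattern in capitals, 8 codons before it and 4 after it in lower case.

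BCL2L11: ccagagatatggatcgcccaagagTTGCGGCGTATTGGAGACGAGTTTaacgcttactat
BBC3: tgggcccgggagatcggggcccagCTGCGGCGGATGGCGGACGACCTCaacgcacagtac
BID: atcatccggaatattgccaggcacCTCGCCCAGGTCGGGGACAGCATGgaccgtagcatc
BAD: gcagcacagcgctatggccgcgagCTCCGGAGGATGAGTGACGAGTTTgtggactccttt
PMAIP1: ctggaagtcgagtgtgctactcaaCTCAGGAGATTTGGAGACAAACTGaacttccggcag
BIK: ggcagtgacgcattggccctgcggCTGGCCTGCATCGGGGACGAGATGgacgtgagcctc
BMF: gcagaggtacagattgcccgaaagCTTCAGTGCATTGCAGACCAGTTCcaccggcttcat
HRK: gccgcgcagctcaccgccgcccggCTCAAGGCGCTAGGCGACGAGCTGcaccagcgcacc

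On GRCh38 these stretches lie at chr2:111150079-111150138 (plus strand, BCL2L11), chr19:47226573-47226632 (minus, BBC3), chr22:17739409-17739468 (minus, BID), chr11:64271616-64271675 (minus, BAD), chr18:59902649-59902708 (plus, PMAIP1), chr15:40104189-40104248 (minus, BMF) and chr12:116881164-116881223 (minus, HRK). That of BIK is split by an intron and spans chr22:43124179-43127751 (plus). The pattern itself requires the leucine and the aspartate, and no other residue was shared by all 8 members. The place just before the aspartate was glycine in 5 members, alanine in BBC3 and BMF, and serine in BAD. BAD and BCL2L11 had 6 of the 8 residues and 17 of the 24 bases in common. BID and BMF had 8 bases and only the 2 required residues in common.

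The libraries held 20873393 to 29161298 gene counts, and levels are given as CPM (counts scaled to a common library size, with TMM factors). LINC01432 itself had 20.5 and 17.9 CPM in the control LNA libraries and 8.997 and 9.904 CPM in the LINC01432 LNA libraries, a log2 fold change of -1.02 ± 0.11 (SE; adjusted p = 0.000228 by the quasi-likelihood test of edgeR with Benjamini-Hochberg adjustment). All 9 plasma cell and myeloma markers were detected, with a summed level of 3348 to 3694 CPM, and of these CD38 rose and TNFRSF17 and XBP1 fell. Markers of T and NK cells summed to 0.285 to 0.674 CPM and those of myeloid cells to 3.64 to 5.43 CPM, with LYZ at 0 counts. Of the 4 epithelial markers EPCAM made up nearly the whole sum of 50.2 to 61.6 CPM and KRT19 had 0 counts. Of 5 fibroblast and endothelial markers 1, COL1A1, was higher with LINC01432 LNA (2.13 ± 0.442 against 3.82 ± 0.530 CPM), and their sum was 2.47 and 2.85 CPM in the controls and 4.01 and 4.95 CPM after LINC01432 LNA. The part of COL1A1-expressing cells in the results was not tested. In such bulk samples, fewer cells with an RNA and less of it per cell cannot be told apart. The 2 LINC01432 LNA libraries differed from each other more than the 2 controls did: the variance of their counts was 12.4 times that expected from counting alone, against 3.85 times for the control pair.

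The first question was which BH3-only genes differed after the long noncoding RNA was lowered. BAD, BBC3 and PMAIP1 rose, by 3.30-fold, 2.38-fold and 1.71-fold. None of the 8 fell, and BCL2L11, the member with the most counts, was measured at 50.6 ± 0.419 CPM in the controls and 48.5 ± 5.99 CPM after LINC01432 LNA (SD, n = 2). A gene is said to rise or fall where edgeR's adjusted p over all 18680 tested genes was under 0.05. By that rule 3 of 8 members rose, where 7.50% of all tested genes rose, 4.37% fell and 11.9% changed in either direction. The median log2 fold change of the 8 members was 0.65, beside 0.01 over all tested genes. Both LINC01432 LNA libraries lay above both controls for 7 of the 8 members, where 28.2% of tested genes did so. For 0 members did both lie below both controls, where 25.9% of tested genes did, and in all 54.1% of tested genes had groups without overlap. For any 1 gene the smallest p of an exact permutation test is 0.333 at 2 libraries against 2, and each call therefore draws on the spread edgeR estimates from many genes.

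**Figure D1:**
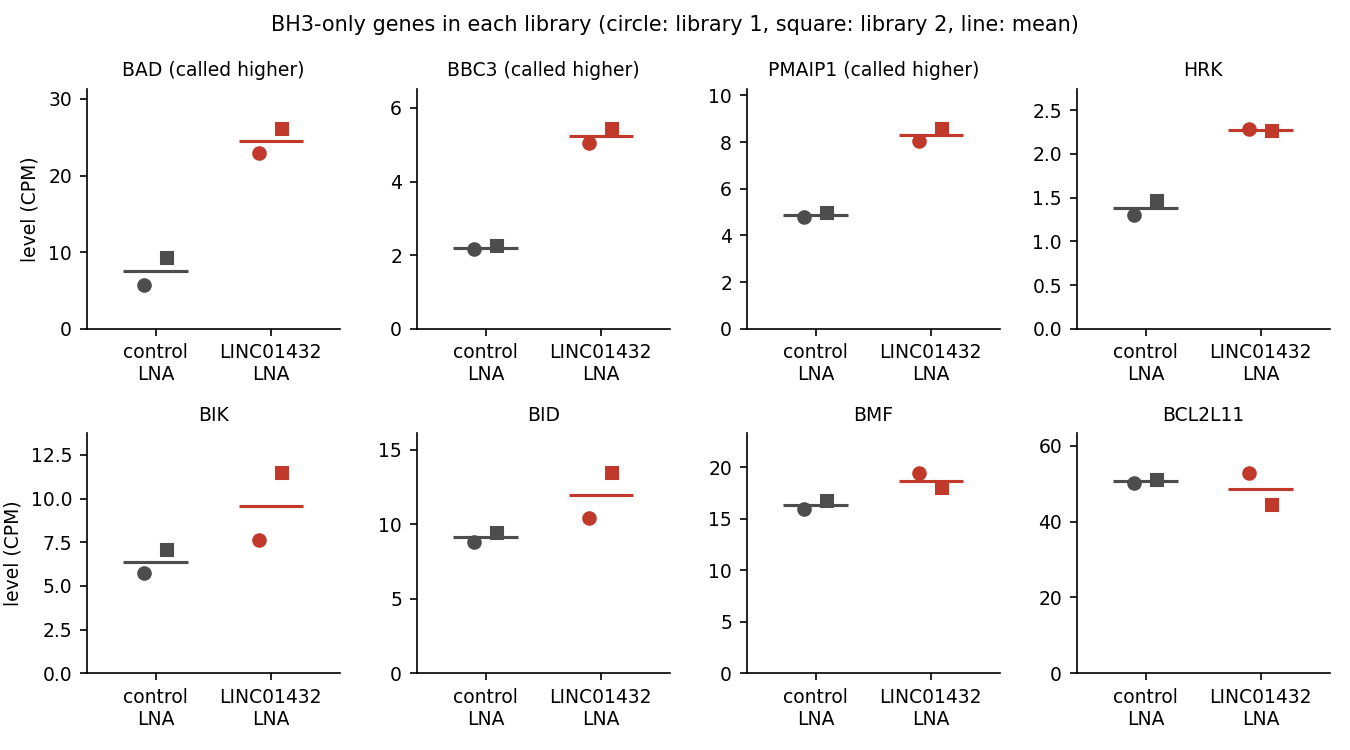
Level (CPM, linear axis from 0) of each BH3-only gene in the 2 control LNA libraries (grey) and the 2 LINC01432 LNA libraries (red), with circles for library 1, squares for library 2 and lines for the means. BAD runs from 5.70 and 9.29 to 22.9 and 26.1 CPM, while the libraries of BCL2L11 overlap.

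Among the members that can activate BAX and BAK directly, BBC3 rose, and BCL2L11 and BID did not pass the test. BBC3 (ENSG00000105327, chr19:47220822-47232766, minus strand) encodes PUMA, a strong inducer of apoptosis. It had 63 and 55 counts with control LNA and 108 and 137 with LINC01432 LNA, or 2.16, 2.24, 5.03 and 5.43 CPM. The libraries of each group were close together and the groups did not overlap. Its log2 fold change was 1.25 ± 0.18 (SE; edgeR adjusted p = 0.00114). Without each library in turn it was 1.18 to 1.28 and stayed called. BBC3 has the most GC-rich transcript of the 8, at 69.7% GC. With a correction for GC content its log2 fold change was 0.47 ± 0.17 and was no longer called (edgeR adjusted p = 0.107). Exons of BBC3 hold the microRNA genes MIR3190 and MIR3191, each with 0 counts in all 4 libraries. Genes with the most similar pattern over the 4 libraries, whatever their level, were sought among 10126 genes with at least 5 CPM. They were RNF208, JUNB and TEDC1, at distances of 0.0537, 0.0571 and 0.0669 (Euclidean, log2 CPM centred on each gene's mean). These distances, like those given below, were taken without GC correction. The transcripts of these genes had 67.2%, 64.9% and 64.8% GC.

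BCL2L11 (ENSG00000153094, chr2:111119378-111168447, plus strand), which encodes BIM in several splice forms, had 50.3 and 50.9 CPM in the controls and 52.8 and 44.3 CPM after LINC01432 LNA. One LINC01432 LNA library was above and the other below the controls. Its log2 fold change of -0.06 had a 95% interval of -0.27 to 0.15 (edgeR adjusted p = 0.748), the interval not being adjusted for the number of genes. The value depended on the library left out: it was -0.21 and called lower without LINC01432 LNA library 1 (edgeR adjusted p = 0.0254) and 0.04 without library 2 (adjusted p = 0.740). Such fits take their spread from the control pair. Of its exonic bases 10.9% overlap MIR4435-2HG, a long noncoding RNA on the other strand, which had 43.3, 42.2, 42.4 and 34.3 CPM in the same order of libraries (log2 fold change -0.16, adjusted p = 0.375). MIR4435-2HG depended on the same libraries: it was -0.33 and called lower without LINC01432 LNA library 1 (adjusted p = 0.000517) and -0.03 without library 2 (adjusted p = 0.838). Counts per gene do not separate the splice forms of BIM.

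BID (ENSG00000015475, chr22:17734138-17774770, minus strand) links death receptors to mitochondria when caspase-8 cleaves its product. It had 8.83 and 9.41 CPM in the controls and 10.4 and 13.4 CPM after LINC01432 LNA. The groups did not overlap, but the LINC01432 LNA libraries differed from each other by more than library 1 differed from the controls. The log2 fold change was 0.40, with an interval of 0.10 to 0.69 before adjustment, and did not pass (edgeR adjusted p = 0.0854). It was 0.54 without LINC01432 LNA library 1, then called (adjusted p = 0.000179), and 0.18 without library 2 (adjusted p = 0.375).

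Among the members that act by occupying survival proteins, BAD and PMAIP1 rose. BAD (ENSG00000002330, chr11:64269830-64284704, minus strand) encodes a partner of BCL2, BCL-XL and BCL-w that survival kinases keep phosphorylated and bound to 14-3-3 proteins. It had 166 and 228 counts with control LNA and 491 and 658 with LINC01432 LNA, or 5.70, 9.29, 22.9 and 26.1 CPM. Both LINC01432 LNA libraries were above 2 times the higher control. The log2 fold change was 1.72 ± 0.17 (SE; edgeR adjusted p = 0.000122), and 354 genes, 1.90% of those tested, rose by at least 1 on this scale. Control library 1 was the lowest: without it the log2 fold change was 1.38, and without control library 2 it was 2.09, both called. Of the exonic bases of BAD 23.7%, or 404 bases, overlap GPR137 on the opposite strand, and the strand setting of the counting is not given. GPR137 rose as well, from 71.0 and 72.3 to 102 and 114 CPM (log2 fold change 0.59, adjusted p = 0.00101), and the shared bases make up 10.02% of its exons. With GC correction GPR137 was at 0.20 on that scale and not called (adjusted p = 0.0773). The part of GPR137 reads in the counts of BAD was not tested. The genes with the most similar pattern over the 4 libraries were PRR7, RUFY4 and TRIM22, at distances of 0.121, 0.130 and 0.202. Their transcripts had 71.55%, 58.27% and 41.82% GC, against 66.3% for BAD.

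PMAIP1 (ENSG00000141682, chr18:59899948-59904306, plus strand) encodes NOXA, which binds MCL1 and BFL1 and promotes the breakdown of MCL1. It had 139 and 122 counts with control LNA and 173 and 216 with LINC01432 LNA, or 4.77, 4.97, 8.06 and 8.56 CPM. The groups were well apart and the libraries within each were close. The log2 fold change was 0.77 ± 0.14 (SE; edgeR adjusted p = 0.00375). No exonic base of PMAIP1 overlaps another annotated gene. Without each library in turn the value was 0.71 to 0.80 and stayed called (adjusted p up to 0.0316, without control library 1). The genes with the most similar pattern, without GC correction, were BCAR1, TELO2 and SDC3, at distances of 0.0259, 0.0260 and 0.0271. Their transcripts had 63.1%, 66.3% and 58.7% GC, against 37.2% for PMAIP1.

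BIK, HRK and BMF did not pass the test. BIK (ENSG00000100290, chr22:43110748-43129712, plus strand), whose product sits at the endoplasmic reticulum, had 5.74 and 7.05 CPM in the controls and 7.64 and 11.5 CPM after LINC01432 LNA. Only library 2 of the LINC01432 LNA pair was well above the controls. The log2 fold change was 0.60 with an interval of 0.19 to 1.00 (edgeR adjusted p = 0.0609). It was 0.25 without LINC01432 LNA library 2 (adjusted p = 0.275), 0.83 and called without library 1 (adjusted p = 4.31e-07), and 0.73 and called without control library 2 (adjusted p = 0.0106). BIK was also called without a filter on low counts (0.58, adjusted p = 0.00268).

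HRK (ENSG00000135116, chr12:116856144-116881441, minus strand), a partner of BCL-XL best known from neurons, had 38 and 36 counts with control LNA and 49 and 57 with LINC01432 LNA, or 1.31, 1.47, 2.28 and 2.26 CPM. The groups did not overlap, and the log2 fold change of 0.71 was close to that of PMAIP1, but the SE of 0.24 at these counts was larger (edgeR adjusted p = 0.0837). Its interval was 0.18 to 1.25. BMF (ENSG00000104081, chr15:40087890-40108892, minus strand), whose product is held by a dynein light chain at the cytoskeleton, had 15.9 and 16.7 CPM in the controls and 19.4 and 18.0 CPM after LINC01432 LNA. Its log2 fold change of 0.20 had an interval of -0.02 to 0.41 (edgeR adjusted p = 0.234). The antisense gene BMF-AS1, whose exons lie wholly within those of BMF, had 0 counts in all libraries.

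Because log2 fold changes rose with GC content over all genes, each member was set beside genes of like GC content. BAD (66.3% GC) and BBC3 lay in the most GC-rich of 10 equal groups of genes, where the median log2 fold change was 0.37 and 35.0% of the genes rose. PMAIP1, at 37.2% GC, lay in the least GC-rich group, where the median was -0.13 and 1.93% rose. HRK and BID lay in a middle group (median 0.02, 4.81% rose) and BIK and BMF in a richer one (0.07, 7.67% rose). After a lowess correction for GC content, the log2 fold change of BAD was 1.18 ± 0.15 and that of PMAIP1 0.88 ± 0.14, both called (edgeR adjusted p = 0.00153 and 0.00367). The correction moved BBC3 the most, to 0.47, and HRK, BIK, BID, BMF and BCL2L11 to 0.67, 0.47, 0.35, 0.09 and -0.05, none of them called. After it 2 of 8 members rose, beside 4.43% of the 17060 genes with a GC value, and the members' median was 0.47. Of all changed genes 63.2% were higher without the correction and 35.6% with it. Whether the link with GC content arose in the cells or in the making of the libraries was not tested.

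**Figure D2:**
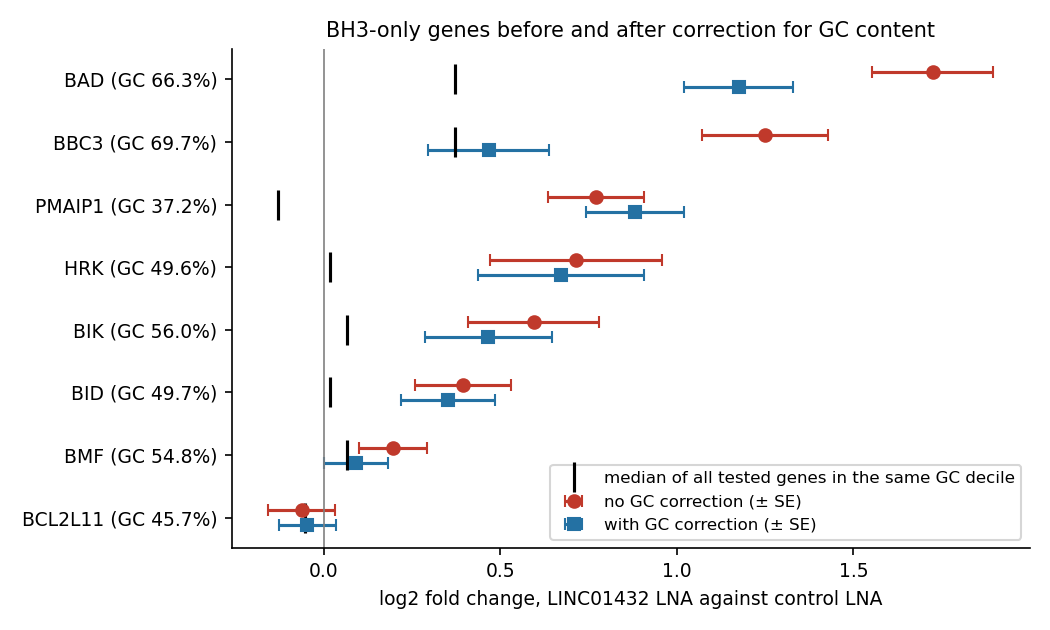
Log2 fold change (LINC01432 LNA against control LNA) of each BH3-only gene with its SE, from edgeR without (red circles) and with (blue squares) correction for GC content; black ticks give the median of all tested genes in the same of 10 equal groups by GC content. The ticks, at 0.37 for BBC3 and -0.13 for PMAIP1, come from the fit without correction and are to be read against the red circles only. On that scale BAD lay above 97.4% of the genes in its group, BBC3 above 93.1% and PMAIP1 above 98.9%. With correction BBC3 moves from 1.25 to 0.47 and PMAIP1 from 0.77 to 0.88.

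BAD and PMAIP1 were called in all 13 alternative fits (other scaling, filters and tools, each library left out, the replicate block and GC correction), with log2 fold changes of 1.17 to 2.09 and 0.71 to 0.88. BBC3 was called in 11 of 13, the exceptions being the 2 fits with GC correction. BIK was called in 5, BID in 3, HRK and BCL2L11 in 1 each and BMF in 0.

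**Figure D3:**
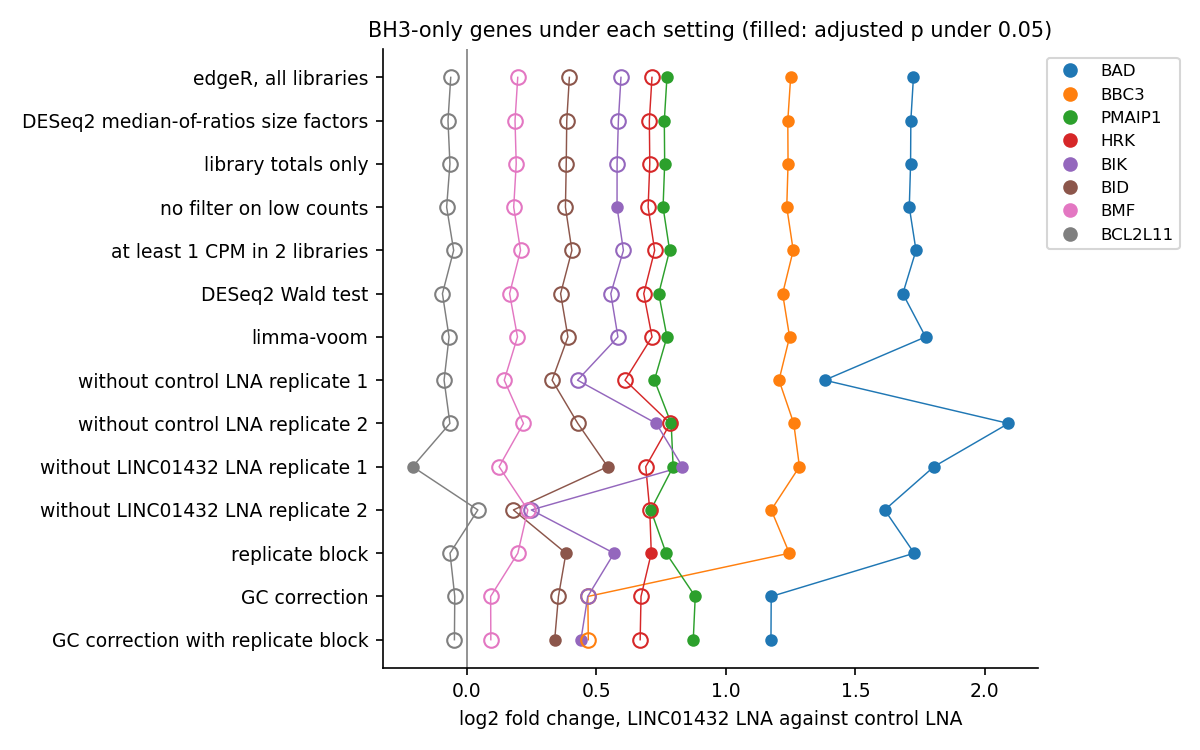
Log2 fold change of the 8 BH3-only genes (colours) under each setting, one row per setting, with filled points where the edgeR, DESeq2 or limma adjusted p was under 0.05 and open points otherwise. BAD and PMAIP1 are filled in each row, BBC3 in each row but the bottom pair with GC correction, and the points of BIK and BID shift most when a LINC01432 LNA library is left out.

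Levels of different genes were compared per kilobase of merged exons, without GC correction. With control LNA the order was BCL2L11 (7.60 ± 0.0629 CPM per kilobase; SD, n = 2), BIK (6.71 ± 0.976), BAD (4.39 ± 1.49), BMF (2.997 ± 0.101), PMAIP1 (2.18 ± 0.0628), BID (2.05 ± 0.0936), BBC3 (0.693 ± 0.0173) and HRK (0.202 ± 0.0167). No neighbours in this order overlapped between libraries, although BCL2L11 and BIK, and PMAIP1 and BID, came close. With LINC01432 LNA the order was BAD (14.3 ± 1.32), BIK (10.02 ± 2.82), BCL2L11 (7.29 ± 0.900), PMAIP1 (3.72 ± 0.156), BMF (3.44 ± 0.188), BID (2.69 ± 0.475), BBC3 (1.64 ± 0.0874) and HRK (0.331 ± 0.00268). BAD thus moved from the third to the first place and, by merged exons, PMAIP1 passed BMF, while BBC3 and HRK kept the lowest places. The log2 fold change of BAD was 1.72 without and 1.18 with GC correction, and the order with that correction was not tested. With the length of the longest transcript in place of merged exons, BID took the fourth place in both groups, and its level with control LNA was 3.66 and that of BBC3 1.198 CPM per kilobase. By that length the libraries of PMAIP1 (4.14 and 4.39) and BMF (4.15 and 3.84) overlapped after LINC01432 LNA. These are levels of RNA, and protein was not analysed here.

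Summed over the 8 genes, again without GC correction, the level was 24.8 and 28.8 CPM per kilobase with control LNA and 40.8 and 46.1 with LINC01432 LNA. BAD made up 13.4% and 18.9% of the sum in the controls and 32.9% and 33.1% in the LINC01432 LNA libraries. The share of BCL2L11 was 30.4% and 26.5% in the controls and 19.4% and 14.4% in the LINC01432 LNA libraries. The shares add up to a whole, so a larger share of BAD lowers the others.

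**Figure D4:**
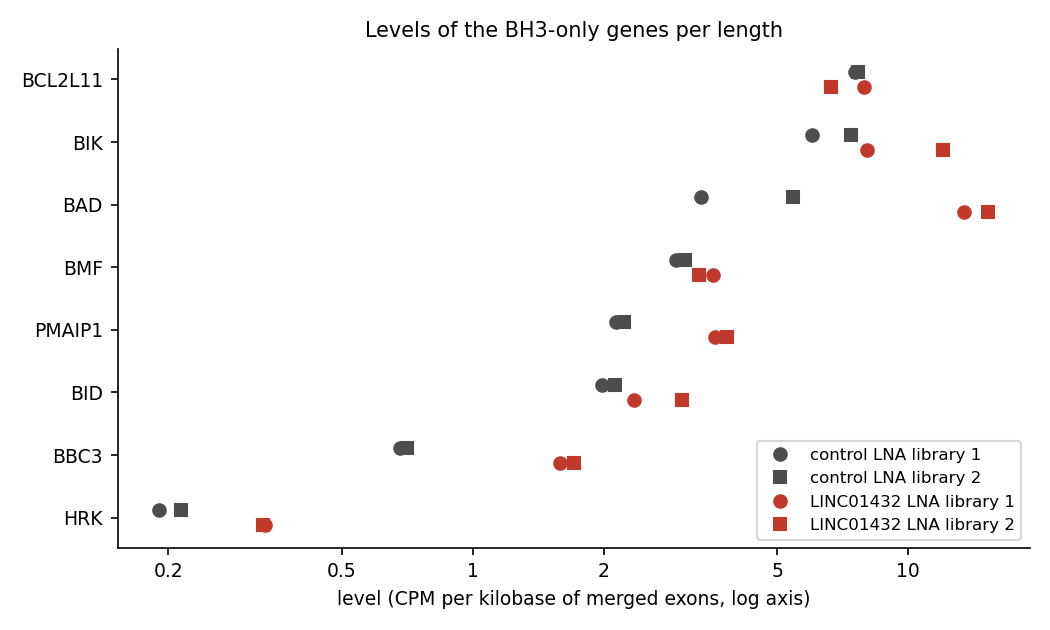
Level of each BH3-only gene in each library in CPM per kilobase of merged exons (log axis), control LNA in grey and LINC01432 LNA in red. BAD moves past BIK and BCL2L11, to 13.4 and 15.3, and HRK stays lowest at 0.190 to 0.333.

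The genes of the survival proteins that BH3-only proteins bind were given by a list. Of its 6 genes, 4 were tested: BCL2 and MCL1 rose, 0 fell, and neither BCL2L1 (BCL-XL) nor BCL2L2 (BCL-w) passed. Their median log2 fold change was 0.08. Of all tested genes 7.50% rose and 4.37% fell. MCL1, the partner of NOXA, had 182 and 190 CPM in the controls and 222 and 228 CPM after LINC01432 LNA (1.21-fold, edgeR adjusted p = 0.0424). BCL2 had 75.6 and 81.1 against 108 and 94.2 CPM (1.29-fold, adjusted p = 0.0212). Neither was called without control library 1 (adjusted p = 0.689 for MCL1 and 0.458 for BCL2) or without control library 2 (0.512 and 0.184), and MCL1 was not called by DESeq2 (0.0914), with DESeq2's size factors in edgeR (0.0553) or without a filter on low counts (0.0576). BCL2L1, the partner of BAD and HRK, had 72.6 and 70.7 against 59.0 and 61.3 CPM (log2 fold change -0.25, adjusted p = 0.0604). After GC correction BCL2L1 fell, by 0.39 on the log2 scale (adjusted p = 0.00487). BCL2A1, which encodes BFL1, and BCL2L10 had 0 counts in all libraries, which allows a level of up to 0.103 to 0.140 CPM (3 counts; counting error only). The effectors BAX (29.9, 30.0, 30.1 and 34.0 CPM) and BAK1 (61.9, 63.9, 63.8 and 78.3 CPM) did not pass (edgeR adjusted p = 0.542 and 0.297), and BOK, with 5 to 8 counts, was not tested.

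Of 7 genes of proteins with a BH3-like motif outside the classical members, 6 were tested: 0 rose, 1 fell and 5 failed the test (median log2 fold change -0.01). Over all tested genes 7.50% rose and 4.37% fell. BNIP3L, a mitophagy receptor, fell to 0.774 times its control level, from 13.8 ± 0.297 to 10.7 ± 0.561 CPM (edgeR adjusted p = 0.0462). It was not called after GC correction (adjusted p = 0.0885), by DESeq2 (0.188) or with either control library left out. With either LINC01432 LNA library left out it stayed called. Without each library in turn its log2 fold change was -0.44 to -0.33. Its call was also lost with library totals only (0.0785), with a filter of at least 1 CPM in 2 libraries (0.0508) and by limma-voom (0.0547), so in 7 of the 13 alternative fits.

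Transcription factors known to act on BH3-only genes were given by a list of 10, all tested: 3 rose, 0 fell and 7 failed the test. The median log2 fold change was 0.15. Over all tested genes 7.50% rose and 4.37% fell. DDIT3 (CHOP), a stress factor known to induce BCL2L11 and BBC3, had 1.96 and 2.53 CPM in the controls and 5.22 and 4.95 CPM after LINC01432 LNA (2.28-fold, edgeR adjusted p = 0.00232). JUN, known to act on BCL2L11 and HRK in neurons, had 16.9 and 17.3 against 33.1 and 28.5 CPM (1.80-fold, adjusted p = 0.000310). ATF4, the factor upstream of DDIT3 in the integrated stress response, had 238 and 247 against 300 and 351 CPM (1.34-fold, adjusted p = 0.0117). Without each library in turn its log2 fold change was 0.29 to 0.52. The call of ATF4 was lost with either control library left out and kept with either LINC01432 LNA library left out. All 3 were called after GC correction, with adjusted p = 0.00447, 0.00203 and 0.0401. FOXO3, an activator of BCL2L11, had 210 and 207 against 184 and 162 CPM (log2 fold change -0.27, adjusted p = 0.0618), and fell after GC correction (-0.31, adjusted p = 0.0247). E2F1, a cell cycle factor, had a log2 fold change of 0.02 (edgeR adjusted p = 0.904) and also fell after GC correction (-0.31, adjusted p = 0.0210). With that correction 3 of the 10 rose and 2 fell, where 4.43% of all tested genes rose and 8.00% fell.

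Genes whose products modify or hold BH3-only proteins were given by a list of 24, all tested: 1 rose, 3 fell and 20 failed the test. After GC correction 1 rose and 6 fell. Of all tested genes 7.50% rose and 4.37% fell, and after GC correction 4.43% rose and 8.00% fell. The median log2 fold change of the list without the correction was -0.13. PIM2, a kinase that phosphorylates BAD, rose from 258 ± 1.54 to 349 ± 42.8 CPM (1.35-fold, edgeR adjusted p = 0.0115). YWHAB, one of the 14-3-3 proteins that hold BAD, fell from 300 ± 1.72 to 240 ± 4.02 CPM (adjusted p = 0.0198), and the other 6 genes of that family did not pass, although SFN fell after GC correction (-0.49, adjusted p = 0.00759). PRKACA, the catalytic subunit of protein kinase A, which phosphorylates BAD, fell from 99.7 ± 0.479 to 81.2 ± 6.77 CPM (adjusted p = 0.0415). Without each library in turn the log2 fold change was 0.29 to 0.54 for PIM2, -0.36 to -0.32 for YWHAB and -0.40 to -0.23 for PRKACA. Their calls were lost with either control library left out and kept with either LINC01432 LNA library left out. Fits without a control library take their spread from the LINC01432 LNA pair, which varied more. DYNLL1 and DYNLL2, the light chains that hold BIM and BMF, and CASP8, which cleaves BID, did not pass (log2 fold changes -0.13, 0.03 and -0.16).

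**Figure D5:**
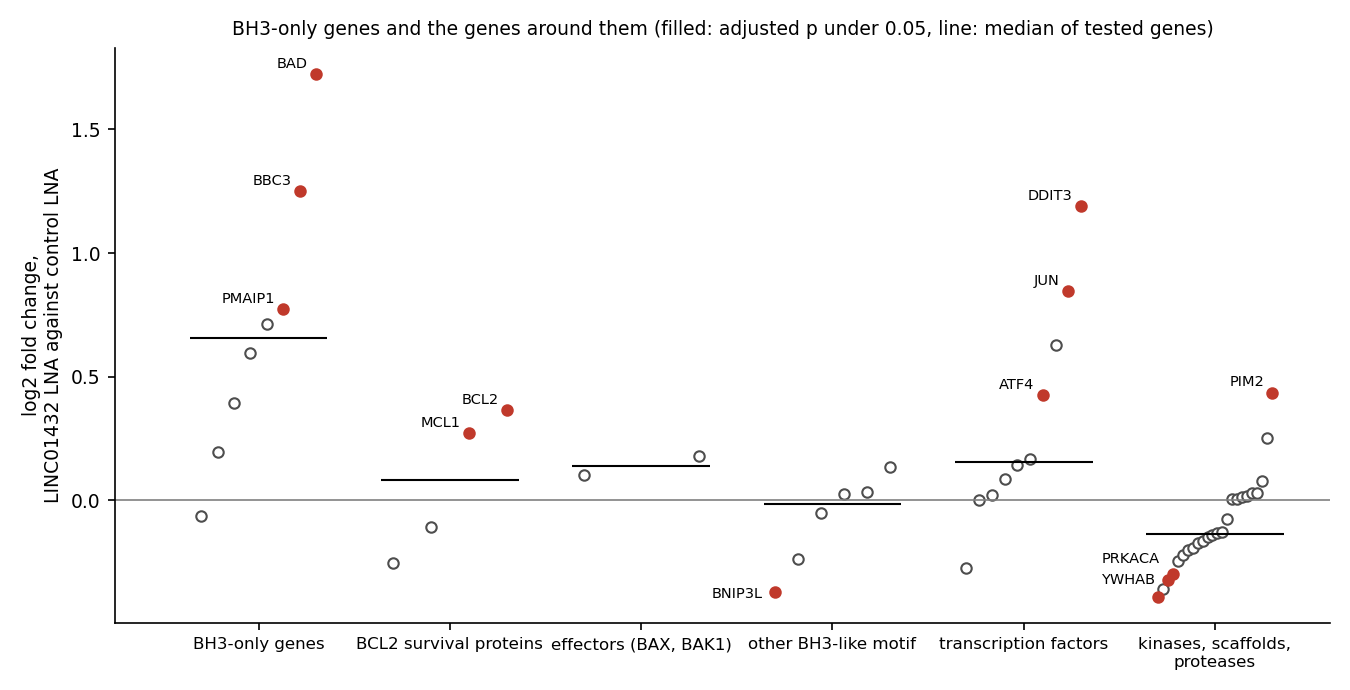
Log2 fold change of the tested genes of each list (points, filled red where the edgeR adjusted p was under 0.05, those described in the text labelled), with the median of each list as a line. The median of the BH3-only genes is 0.65, those of the other 5 lists lie between -0.13 and 0.15.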

How the data were processed

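The 4 RNA-seq libraries were analysed from the gene counts the authors deposited, which are whole and unscaled. The submitters' processing notes list GRCh38, bcl2fastq, Salmon 1.10.0, STAR 2.7.11b and Subread's featureCounts 2.0.8, without saying which step each served. Which annotation release and strand setting were used is not given in the sources used here. The labels disagree on RNA selection: the design text names poly(A) selection, the protocols removal of ribosomal RNA. The 92 spike-in and 5 transgene rows, at most 4.2e-05% of a library, were left out.

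A reference table gave symbols for 61481 of 78932 Ensembl IDs. Positions, merged exon lengths, overlaps, and GC content and coding sequence of transcripts came from GENCODE 29 (GRCh38), which held 57356 IDs with 99.4% of the counts. Groups and replicate numbers came from the titles. The test was edgeR 4.0.16 (quasi-likelihood F test, TMM, filterByExpr with minimum count 10 and minimum total 15, group as the only term) in R 4.3.3, with Benjamini-Hochberg adjustment over all tested genes. SEs were derived from the F statistic. Alternatives were other scaling and filters, DESeq2 1.42.0, limma-voom (limma 3.58.1), each library left out, the replicate number as a block, an offset for the lowess trend (span 0.3) of log2 CPM on GC content, and a threshold of 0.01.

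All 8 members were named, and in each list the called genes up to 4 by smallest p, or else the 2 with the highest CPM. Genes overlapping a member's exons by at least 50 bases were named, and the 3 closest patterns of each called member. Some list genes are not reported here. Further list genes named (BCL2L1, BCL2L2, BCL2A1, BCL2L10, BOK, FOXO3, E2F1, SFN, DYNLL1, DYNLL2, CASP8) and the cell markers named were chosen after their values were seen. The members, lists and tests were chosen with earlier results of these data known. The edgeR step was run on simulated counts, where it recovered 76.3% of log2 changes of 1, and 4.12% of its calls were false. The simulation gave all genes and both groups 1 common spread and no trend with GC content. It therefore cannot show how the test behaves with the unequal spread and the GC trend of these data.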

Additional observations from a re-analysis of the deposited data

How the results depend on the processing

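With all libraries 2218 genes changed. The count was 1400 with DESeq2's Wald test, 1000 at an adjusted p under 0.01, 3862 with the replicate block, 3939 with GC correction and the replicate block, and 766 to 5228 with each library left out, lowest without control library 1 and highest without LINC01432 LNA library 1. A fit with 1 library in a group assumes that it varies like the other pair. Of the BH3-only genes 3 changed with all libraries, 6 with the replicate block (BID, BIK and HRK besides BAD, BBC3 and PMAIP1), and 3 to 6 with each library left out; the 6 without LINC01432 LNA library 1 were BAD, BBC3, PMAIP1, BID and BIK, higher, and BCL2L11, lower. The labels give both groups the replicate numbers 1 and 2, but nothing says that a number marks a shared batch. With 2 pairs the correlation of the deviations, 0.135, does not decide it, so the block served only as an alternative fit. The only call of HRK among the alternatives came with this block (edgeR adjusted p = 0.0382). The log2 fold change of BCL2L11 was -0.21 without LINC01432 LNA library 1 and changed sign without library 2, to 0.043. Of 112 values of single members under alternatives, 99 kept direction and side of the threshold, 10 passed it, 2 no longer did (BBC3 with GC correction) and 1 changed sign; the cause was not tested. Depth limits HRK most, with 36 to 57 counts a library.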
